A study of Bos taurus with 6 samples.

Results

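The genes described here are 9 enzymes of one-carbon metabolism and the methionine cycle, chosen by gene symbol in the deposited expression table and out of 36075 genes in all. They are MAT2A, MAT2B, AHCY and MTR of the methionine cycle, MTHFD1, MTHFD2, SHMT1 and SHMT2 of folate metabolism, and TYMS of thymidylate synthesis, and each symbol matched 1 row. RNA was sequenced from bovine (Bos taurus) blastocysts in 6 libraries, 3 control and 3 MT-treated, where MT is melatonin. Cumulus-oocyte complexes from slaughterhouse ovaries were matured in vitro for 22 h either without MT (control) or with MT at 1e-07 mol/L (MT-treated), then fertilized and cultured to the blastocyst stage, so MT was present during maturation and the RNA was taken from the later blastocysts. Each library was made from a pool of 3 blastocysts, and the replicates of a group came from 3 production runs, details that stand in the methods and not in the sample labels. A pool mixes the cell types of the embryo, so a lower level can mean fewer cells of a type or less RNA per cell. Levels are also shares of a library, so a level can be lower where other transcripts take more of it. These readings cannot be told apart.

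One-carbon metabolism moves single carbon units on folate from serine and glycine to the synthesis of purines, thymidylate and methionine. The mitochondrial and cytosolic branches carry matching reactions on separate enzymes, and the methionine cycle uses the carbon to make S-adenosylmethionine, the methyl donor for DNA, histone and RNA methylation. In the preimplantation embryo the pathway is known for serving nucleotide synthesis in dividing cells and the supply of methyl groups during remodelling of the epigenome.

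Levels are given as TPM, transcript abundances scaled to gene length and library total, which can be compared between genes. TPM hold no counts, so the depth behind a value is unknown. Differences between the groups were tested on log2(TPM + 1) with limma over the 11953 genes that had at least 1 TPM in at least 3 libraries, and a gene was called at a Benjamini-Hochberg adjusted p-value under 0.05. Fold changes on this scale understate the change of low genes.

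The groups differed across much of the table. Control libraries had 8854 to 8953 genes above 0 and MT-treated libraries 14372 to 14408, and 61.6% of the tested genes were called higher and 34.1% lower in MT-treated blastocysts. All 10 trophectoderm markers were above 0 in MT-treated libraries and 8 of 10 in control libraries, with CDX2 and ELF5 listed at 0 in every control library, and the summed level of the list, most of it from keratins, was 12195 to 12566 TPM in control and 11164 to 11529 TPM in MT-treated libraries. Of these markers 7 were called higher, among them CDX2 and ELF5, which passed the filter only through the MT-treated libraries and so had to differ. The 3 called lower were TFAP2A (mean 36.1 TPM in control and 0.49 TPM with MT), KRT8 and KRT19, and TFAP2A passed the filter only through the control libraries. KRT8 turned to higher (log2 fold change -0.33 as deposited and 0.15 after centring the libraries on their medians). For the inner cell mass list, 6 of 9 markers were above 0 in control (439 to 449 TPM in sum) and 7 of 9 in MT-treated libraries (332 to 334 TPM), with NANOG at 0 in every control library and TDGF1 and FGF4 at 0 throughout. SOX2 had 0, 0.02 and 0 TPM in control and 5.88, 6.80 and 6.95 TPM with MT. It passed the filter only through the MT-treated libraries, so its call of higher as deposited was set by the filter. That call was lost with quantile normalization. KLF17 (mean 44.6 and 5.53 TPM), DPPA3 (196.3 and 107.6 TPM) and LIN28B (1.21 and 0.42 TPM) were called lower, and LIN28B passed the filter only through the control libraries. The calls of KRT19 and LIN28B were lost after that centring (limma adjusted p = 0.0636 and 0.0781). For the hypoblast list, 2 of 7 were above 0 in control (18.3 to 18.9 TPM in sum) and 5 of 7 in MT-treated libraries (91.2 to 99.8 TPM), with PDGFRA and HNF4A at 0 in every control library. Of 9 listed cumulus and granulosa markers, FSHR alone reached 1 TPM in either group (summed level 17.2 to 19.3 TPM in control and 15.1 to 17.1 TPM in MT-treated libraries), while FOXL2, INHA, HAS2, PTX3 and TNFAIP6 were at 0 in all 6 libraries. Of 10 oocyte markers, OOEP alone reached 1 TPM (summed level 45.6 to 49.3 TPM in control and 21.6 to 24.0 TPM in MT-treated libraries), and GDF9, ZP2, ZP3, ZP4, NLRP5 and H1-8 were at 0 in all. The part of these differences in the results on one-carbon genes was not tested.

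Of the 9 genes, 7 passed the filter on low values, and both methionine cycle enzymes that make and clear S-adenosyl compounds, MAT2A and AHCY, were higher in MT-treated blastocysts. The regulatory subunit gene MAT2B, the folate genes MTHFD1, MTHFD2 and SHMT2, and TYMS were lower. SHMT1 and MTR were listed at 0 in every control library and stayed under 1 TPM in every MT-treated library, so they were not tested. The 2 higher and 5 lower genes stand beside 61.6% higher and 34.1% lower among all tested genes, and their median log2 fold change was -0.61 against 1.12 over all tested genes as deposited, -0.14 against 1.6 after centring the libraries on their medians, and -0.33 against 0.04 with quantile normalization. The medians over all tested genes include 5082 genes that were under 1 TPM in every control library, and none of the 7 is of that kind. Among the 5988 genes with at least 1 TPM in all 6 libraries, which include these 7, 55.6% were lower as deposited. Their median log2 fold change was -0.27 on that scale. The 7 genes all had groups that did not overlap, as did 96.1% of the tested genes, so a gap between the groups was the rule in these libraries.

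**Figure D1:**
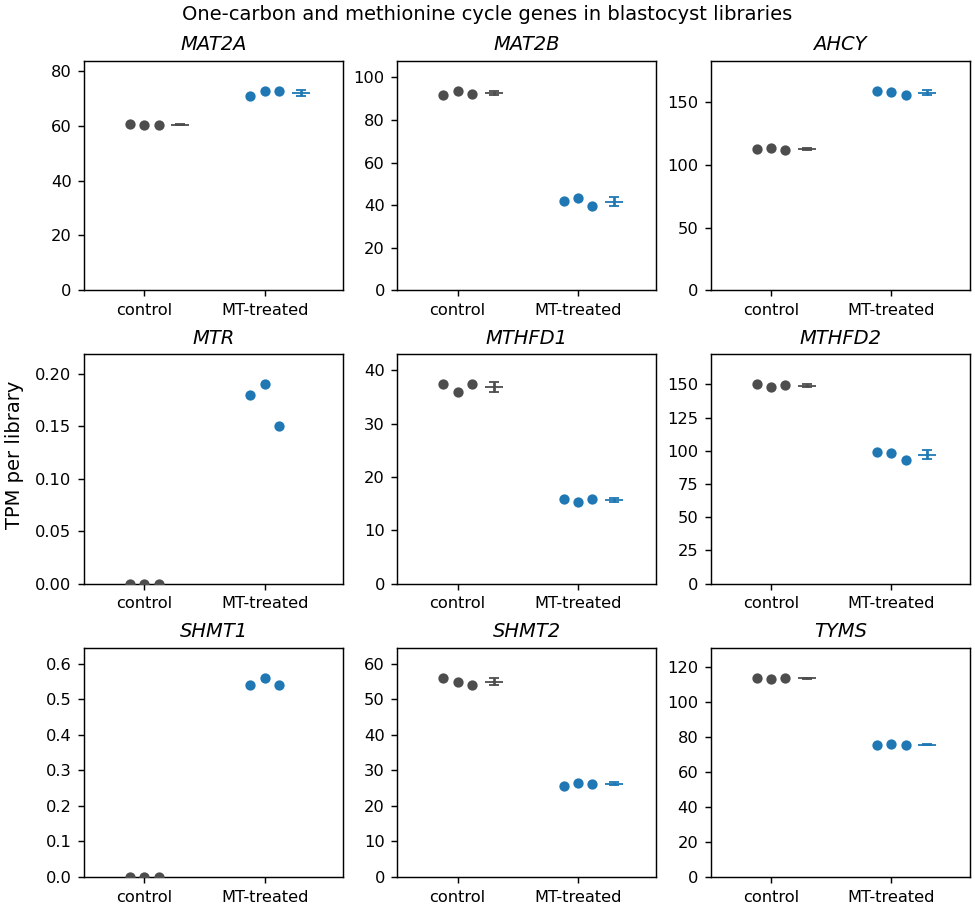
TPM (vertical axes, each starting at 0 and with its own scale) of the 9 genes in each control library (grey points) and each MT-treated library (blue points), with the mean and SD of 3 libraries beside the points where no group was listed at 0. MAT2A and AHCY sit higher in MT-treated libraries, MAT2B, MTHFD1, MTHFD2, SHMT2 and TYMS sit lower, and MTR and SHMT1 are at 0 in every control library.

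In the methionine cycle, MAT2A (ENSBTAG00000020873), the catalytic subunit of the enzyme that makes S-adenosylmethionine outside the liver, had 60.6, 60.4 and 60.1 TPM in controls against 70.7, 72.7 and 72.7 TPM with MT. The means were 60.4 ± 0.256 and 72.0 ± 1.13 TPM (SD, n = 3 each), and the log2 fold change was 0.25 (standard error 0.02, limma adjusted p = 3.14e-05). Every MT-treated library was above every control library, and this was the smallest change of the 7 tested genes as deposited, though not after median centring or quantile normalization, where that of TYMS was the smallest. MAT2B (ENSBTAG00000012350), the regulatory subunit of the same enzyme, moved the other way, with 91.6, 93.7 and 92.4 TPM in controls against 42.0, 43.4 and 39.6 TPM with MT. Its mean fell from 92.5 ± 1.02 to 41.7 ± 1.93 TPM (SD, n = 3 each), with log2 fold change -1.13 (standard error 0.04, limma adjusted p = 2.44e-07).

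AHCY (ENSBTAG00000018101), which splits S-adenosylhomocysteine, the product and inhibitor of methylation reactions, had 113.0, 113.4 and 111.7 TPM in controls against 159.0, 158.2 and 155.5 TPM with MT. The mean rose from 112.7 ± 0.904 to 157.5 ± 1.83 TPM (SD, n = 3 each), with a log2 fold change of 0.48 (standard error 0.02, limma adjusted p = 3.98e-07). MTR (ENSBTAG00000012251), methionine synthase, which joins the folate and methionine cycles, was listed at 0 in each control and reached 0.18, 0.19 and 0.15 TPM with MT. These levels lay above only 11.6% to 12.3% of the genes detected in the same libraries, so the methionine synthase transcript was low in the libraries that listed it.

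In the folate branch, MTHFD1 (ENSBTAG00000009641) encodes the cytosolic enzyme with 3 activities that interconverts folate-bound carbon units. It had 37.4, 35.8 and 37.4 TPM in controls against 15.9, 15.3 and 15.8 TPM with MT, with means of 36.9 ± 0.878 and 15.7 ± 0.311 TPM (SD, n = 3 each). The log2 fold change of -1.18 (standard error 0.03, limma adjusted p = 7.54e-08) was the largest in size of the 7 genes as deposited and with quantile normalization, whereas after median centring that of AHCY was the largest. MTHFD2 (ENSBTAG00000004881), its mitochondrial counterpart with dehydrogenase and cyclohydrolase activity, had 150.0, 147.9 and 149.3 TPM in controls against 99.3, 98.6 and 93.2 TPM with MT. It fell from 149.1 ± 1.09 to 97.0 ± 3.34 TPM (SD, n = 3 each), with log2 fold change -0.61 (standard error 0.03, limma adjusted p = 1.46e-06).

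SHMT2 (ENSBTAG00000031500), the mitochondrial enzyme that takes a carbon unit from serine, had 56.1, 54.9 and 54.1 TPM in controls against 25.8, 26.6 and 26.2 TPM with MT. The mean fell from 55.0 ± 1.02 to 26.2 ± 0.426 TPM (SD, n = 3 each), with log2 fold change -1.04 (standard error 0.03, limma adjusted p = 6.46e-08). SHMT1 (ENSBTAG00000017094), the cytosolic form of the enzyme, was listed at 0 in each control and reached 0.54, 0.56 and 0.54 TPM with MT, above 17.3% to 17.4% of the detected genes. With MT the mitochondrial form was thus the more abundant SHMT transcript. In controls SHMT1 and MTR are only known to be listed at 0, since genes of general cell function, such as PRKAA1, a catalytic subunit of AMP-activated kinase, and ANAPC16, a subunit of the anaphase-promoting complex (both chosen after their values were seen), were also listed at 0 in each control.

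TYMS (ENSBTAG00000007003), thymidylate synthase, which uses a folate-bound carbon to make the thymidine nucleotide for DNA, had 113.4, 112.9 and 113.7 TPM in controls against 75.2, 76.0 and 75.5 TPM with MT. The mean fell from 113.3 ± 0.394 to 75.6 ± 0.403 TPM (SD, n = 3 each), with log2 fold change -0.58 (standard error 0.02, limma adjusted p = 1.19e-07). The coefficient of variation between libraries was 0.348% among controls and 0.533% among MT-treated libraries, the smallest of the 7 tested genes in both groups. Among the 7 genes it ranged up to 2.38% in control (MTHFD1) and 4.65% in MT-treated blastocysts (MAT2B), so the replicates of a group lay close together relative to each difference.

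In the RefSeq annotation of ARS-UCD2.0, used here for neighbours only, 4 of the genes overlap another protein-coding gene, and the sources used here do not say whether counting used the strand, so reads in the overlaps cannot be assigned with certainty. TYMS overlaps ENOSF1, which had 2.06, 1.64 and 1.77 TPM in controls against 18.6, 17.8 and 18.3 TPM with MT. MTHFD2 overlaps SLC4A5, which was listed at 0 in control and had 15.3, 13.6 and 17.7 TPM with MT. Both neighbours were higher where TYMS and MTHFD2 were lower. SHMT1 overlaps SMCR8 and SHMT2 overlaps NDUFA4L2, and both of these neighbours were listed at 0 in all 6 libraries.

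The order of the 9 genes by level changed between the groups. In control blastocysts MTHFD2 was highest, followed by TYMS and AHCY, whose values overlapped (112.9 to 113.7 against 111.7 to 113.4 TPM), and then by MAT2B, MAT2A, SHMT2 and MTHFD1, each apart from the next, with SHMT1 and MTR both at 0. In MT-treated blastocysts AHCY was highest, followed by MTHFD2, TYMS, MAT2A, MAT2B, SHMT2, MTHFD1, SHMT1 and MTR, each apart from the next. AHCY thus moved ahead of MTHFD2 and stood apart from TYMS only with MT, and MAT2A moved ahead of MAT2B.

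Summed over the 9 genes, the level was 622.2, 619.0 and 618.6 TPM in controls against 488.6, 491.4 and 479.2 TPM with MT. The means were 619.9 ± 1.97 and 486.4 ± 6.42 TPM (SD, n = 3 each), and the groups did not overlap (exact two-sided permutation test, p = 0.1, the smallest that 3 against 3 libraries allow). The difference between the groups was -134 TPM as deposited and -83.5 TPM with each library scaled to the summed level of the genes that had at least 1 TPM in all 6 libraries. AHCY made up 18.2% of the sum in control and 32.4% in MT-treated blastocysts. MAT2A went from 9.74% to 14.8% and MAT2B from 14.9% to 8.56%. The largest share in control, 24.0%, was that of MTHFD2, which was 20.0% in MT-treated blastocysts.

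Ratios between 2 genes in the same library hardly move when a whole library is scaled, and 5 were compared. The ratio of (TPM + 1) of MAT2A to MAT2B on the log2 scale was -0.59, -0.62 and -0.61 in controls against 0.74, 0.73 and 0.86 with MT. The catalytic subunit was therefore the less abundant transcript of the pair in control and the more abundant in MT-treated blastocysts, a difference of 1.38 in the means. MTHFD2 exceeded MTHFD1 in both groups, with log2 ratios of 1.98, 2.01 and 1.97 in control and 2.57, 2.61 and 2.49 with MT, a difference of 0.57. The ratios were not computed with quantile normalization. There the log2 fold changes of MTHFD2 and MTHFD1 were -0.33 and -1.66, against -0.61 and -1.18 as deposited. AHCY exceeded MAT2A by 0.89, 0.90 and 0.88 in control and by 1.16, 1.11 and 1.09 with MT, a difference of 0.23, which was the smallest of the 5. For each of the 5 ratios the groups did not overlap (exact two-sided permutation test, p = 0.1 and 0.1 after adjustment over the 5). The ratio of SHMT2 to SHMT1 had a partner at 0 in every control library, so its size rests on the added value of 1.

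**Figure D2:**
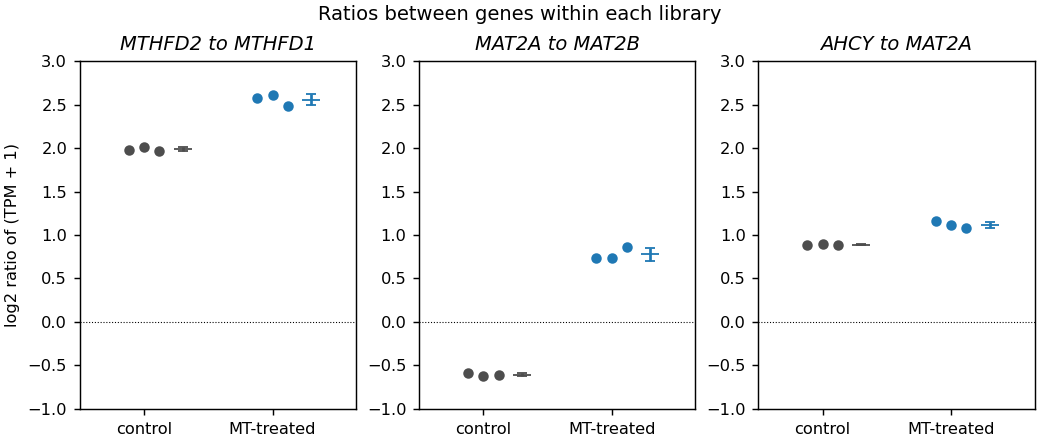
Log2 ratio of (TPM + 1) between 2 genes within each library (vertical axis, the same in the 3 panels) for control (grey) and MT-treated (blue) blastocysts, with the mean and SD of 3 libraries beside the points. The MAT2A to MAT2B ratio lies below 0 in every control library and above 0 in every MT-treated library, the MTHFD2 to MTHFD1 ratio rises from a mean of 1.99 to 2.56, and the AHCY to MAT2A ratio moves least, from 0.89 to 1.12.

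How large the changes are depends on the scale of the libraries. Over the genes with at least 1 TPM in all 6 libraries, the library medians of log2(TPM + 1) lay 0.48 below those of control in the MT-treated libraries, and centring each library on its median raises each MT-treated value by that amount against control. After centring, MAT2A and AHCY had log2 fold changes of 0.73 and 0.96, MAT2B, MTHFD1 and SHMT2 had -0.65, -0.70 and -0.56, and TYMS and MTHFD2 had only -0.10 (95% interval -0.14 to -0.06) and -0.14 (95% interval -0.21 to -0.06). The direction and the call held for each of the 7 (limma adjusted p = 0.00529 for MTHFD2 and 0.00137 for TYMS after centring). Quantile normalization, which forces a common distribution on the libraries, gave 0.54 for MAT2A, 0.75 for AHCY, -0.33 for MTHFD2, -0.30 for TYMS, -0.85 for MAT2B, -0.83 for SHMT2 and -1.66 for MTHFD1. Of the genes called, 64.4% were higher as deposited, 73.5% after centring and 51.1% with quantile normalization. The 9 genes gave 2 higher and 5 lower each time. As deposited, 5082 of the 7367 genes called higher were under 1 TPM in every control library, and none of the 7 tested enzymes was. Among the genes with at least 1 TPM in all 6 libraries, 2177 were called higher and 3330 lower as deposited.

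**Figure D3:**
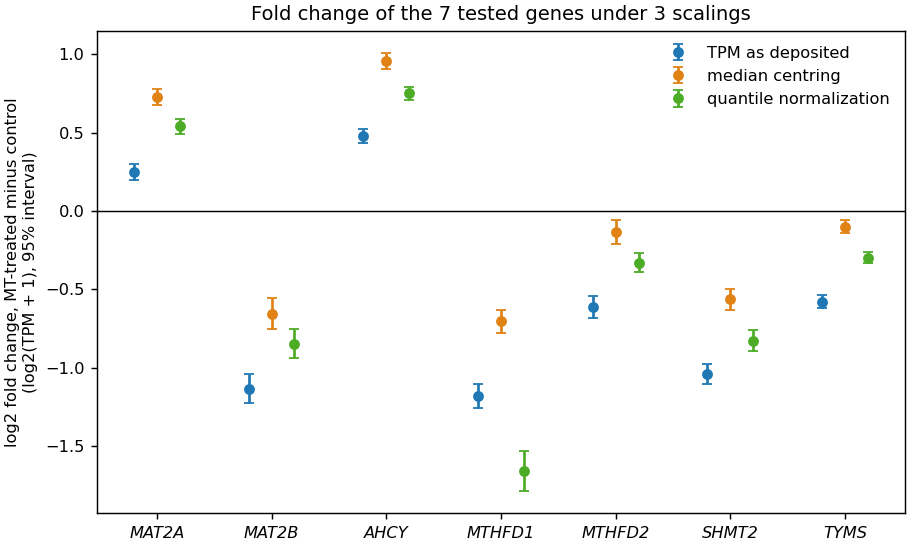
Log2 fold change of the 7 tested genes, MT-treated minus control on the log2(TPM + 1) scale, with 95% intervals from limma, for TPM as deposited (blue), after median centring (orange) and after quantile normalization (green). Each gene keeps its side of 0 in the 3 scalings, with TYMS and MTHFD2 nearest to 0 after median centring, at -0.10 and -0.14.

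Relative to the genes present in all 6 libraries, the 7 fold changes lay within the bulk of the distribution. MTHFD1 and MAT2B were above 23.4% and 24.4% of these 5988 fold changes and SHMT2 above 26.4%. MTHFD2 and TYMS were above 38.2% and 39.3%, MAT2A above 67.9% and AHCY above 74.3%.

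Genes that feed or use the pathway were examined in 5 further lists, 68 genes in all, of which 3 matched no row and 50 were tested, 30 of them higher (60%), 16 lower (32%) and 4 not called, beside 61.6% higher and 34.1% lower among all tested genes. Of the 30, 13 had under 1 TPM in every control library and passed the filter only through the MT-treated libraries, so they had to differ, as did 5082 of the 7367 genes called higher in the whole table. The values of such genes are given with no test. A gene listed at 0 in all control and above 0 in all MT-treated libraries was found for 16 of the 56 that were above 0 in any library (28.6%) and for 2 of the 9 enzymes, beside 32.4% of the 16288 genes above 0 in any library. The median fold changes of these lists include such genes and depend for them on the added value of 1. Where a list's median or a fold change of a named gene moved by over 1.5 times with the scaling of the libraries, its values after median centring and with quantile normalization follow in that order.

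**Figure D4:**
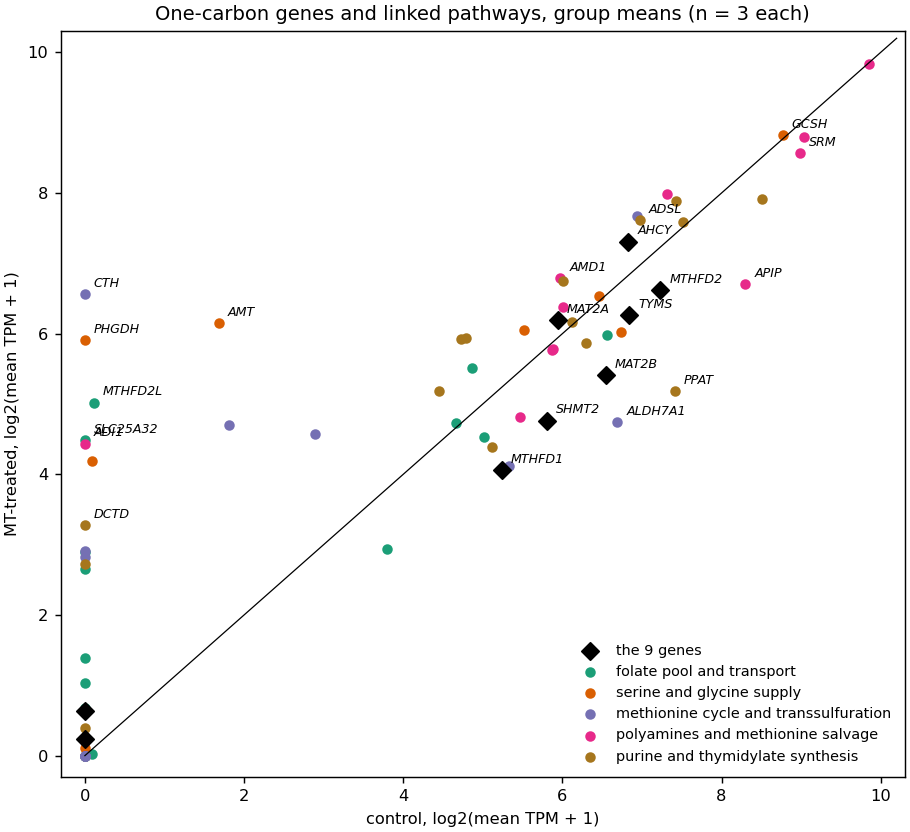
Mean level of each listed gene in control (horizontal axis) and MT-treated blastocysts (vertical axis), both as log2(mean TPM + 1) over 3 libraries, with the 9 enzymes as black diamonds, the 5 linked lists as coloured points and a line where both groups are equal. The points along the left edge, CTH and PHGDH highest among them, are genes listed at or near 0 in control, while PPAT, APIP and ALDH7A1 lie farthest below the line.

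In the list of the folate pool and its transport, 17 genes, 10 were tested, 6 were higher, 3 lower and 1 not called, and the median log2 fold change was 1.02, against 1.5 and 0.16 in the other scalings. MTHFD2L, a mitochondrial paralog of MTHFD2, had 0.20, 0.04 and 0 TPM in controls against 30.9, 33.4 and 30.1 TPM with MT. Its listed level was thus higher in the libraries in which MTHFD2 was lower, and it stayed the less abundant of the pair. SLC25A32, the folate carrier of the mitochondrial inner membrane, was listed at 0 in each control and reached 16.5, 23.5 and 24.4 TPM with MT. MTHFD1L, the mitochondrial formate-producing enzyme that follows MTHFD2, fell from 93.2 ± 0.275 to 62.0 ± 0.860 TPM (SD, n = 3 each), with log2 fold change -0.58 (limma adjusted p = 2.63e-07), against -0.10 and -0.30 in the other scalings. FPGS, which adds glutamate to folate and so retains it in cells, fell from 12.9 ± 0.320 to 6.65 ± 0.333 TPM (SD, n = 3 each), with log2 fold change -0.86 (limma adjusted p = 2.43e-06), against -0.38 and -2.59. MTHFS did not pass the test, at 24.3 ± 2.17 and 25.4 ± 0.715 TPM (SD, n = 3 each), with a 95% interval of the log2 fold change from -0.10 to 0.22, though it was called higher after median centring (0.54, limma adjusted p = 0.000175). MTRR, the reductase that keeps MTR active, was at 0 in all 6 libraries. MTHFS and MTRR were chosen after their values were seen.

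In the list of serine and glycine supply, 9 genes, 7 were tested, 5 were higher, 1 lower and 1 not called, with a median log2 fold change of 0.53, against 1.01 and 0.80 in the other scalings. PHGDH, the first enzyme of serine synthesis, was listed at 0 in each control and reached 56.8, 61.7 and 59.0 TPM with MT. PSPH, the last enzyme of the same route, fell from 105.9 ± 1.12 to 64.1 ± 2.30 TPM (SD, n = 3 each), with log2 fold change -0.71 (limma adjusted p = 8.95e-07), against -0.24 and -0.43 in the other scalings. PSAT1, the enzyme between them, rose from 45.0 ± 0.317 to 65.3 ± 2.12 TPM (SD, n = 3 each), with log2 fold change 0.53 (limma adjusted p = 3.72e-06), against 1.01 and 0.80. Of the 3 steps, PHGDH passed the filter only through the MT-treated libraries, whereas PSAT1 and PSPH had levels in both groups. AMT, the aminomethyltransferase of the glycine cleavage system, which loads folate from glycine in mitochondria, rose from 2.20 ± 0.20 to 70.0 ± 1.14 TPM (SD, n = 3 each), with log2 fold change 4.47 (limma adjusted p = 2.21e-09). GLDC, the decarboxylase that starts that system, was at 0 in each control and reached 0.09, 0.09 and 0.04 TPM with MT, so its first component was hardly listed in either group. DLD, a further component, did not pass the test as deposited (86.7 ± 1.90 and 91.7 ± 8.12 TPM, SD, n = 3 each), but was called higher after median centring, at 0.55, and with quantile normalization, at 0.35 (limma adjusted p = 0.000196 and 0.00215). PSAT1, GLDC and DLD were chosen after their values were seen.

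In the list of the methionine cycle and transsulfuration, 14 genes, 8 were tested, 6 were higher and 2 lower, with a median log2 fold change of 2.25, against 2.73 and 0.66 in the other scalings. CTH and CBS, the enzymes that turn homocysteine into cysteine, were both listed at 0 in each control library. CTH had 94.2, 91.9 and 93.5 TPM with MT and CBS had 7.15, 5.92 and 6.45 TPM. ALDH7A1, which oxidizes betaine aldehyde among other substrates, fell from 102.2 ± 2.97 to 25.7 ± 1.17 TPM (SD, n = 3 each), with log2 fold change -1.95 (limma adjusted p = 2.91e-08). AHCYL2, which resembles AHCY, went from 39.4 ± 0.632 to 16.4 ± 0.339 TPM (SD, n = 3 each), with log2 fold change -1.22 (limma adjusted p = 4.43e-08), against -0.74 and -1.59 in the other scalings, while AHCY rose. AHCYL1, the other AHCY-like gene of the list, rose with AHCY, from 2.49 ± 0.107 to 24.9 ± 0.409 TPM (SD, n = 3 each), with log2 fold change 2.89 (limma adjusted p = 3.15e-09), against 3.37 and 1.90. MAT1A, the liver form of methionine adenosyltransferase, and the betaine-using enzymes BHMT and BHMT2 were at 0 in all 6 libraries, so MAT2A was the catalytic form with a level above 0. METTL16, an RNA methyltransferase that controls the splicing of MAT2A transcripts, had 6.08, 7.21 and 6.0 TPM in control and 21.7, 26.3 and 20.7 TPM with MT, a log2 fold change of 1.68 (limma adjusted p = 8.49e-06), against 2.16 and 1.05. GNMT, which uses S-adenosylmethionine to methylate glycine, rose from 122.0 ± 9.11 to 203.6 ± 13.5 TPM (SD, n = 3 each), with log2 fold change 0.73 (limma adjusted p = 6.95e-05), against 1.21 and 0.97. AHCYL1, MAT1A, BHMT, BHMT2, METTL16 and GNMT were chosen after their values were seen.

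In the list of polyamines and methionine salvage, 12 genes, 11 were tested, 4 were higher, 6 lower and 1 not called, with a median log2 fold change of -0.10, against 0.38 and 0.21 in the other scalings. Median centring gave 9 higher and 2 lower, and with quantile normalization 6 were higher and 4 lower. AMD1, which decarboxylates S-adenosylmethionine for polyamine synthesis, rose from 61.9 ± 1.01 to 109.5 ± 2.41 TPM (SD, n = 3 each), with log2 fold change 0.81 (limma adjusted p = 1.76e-07), against 1.29 and 1.11 in the other scalings. ADI1, a dioxygenase of the salvage route that remakes methionine, was listed at 0 in each control and reached 20.4, 19.7 and 21.9 TPM with MT. APIP, an earlier enzyme of that route, fell from 313.6 ± 8.55 to 102.9 ± 3.46 TPM (SD, n = 3 each), with log2 fold change -1.6 (limma adjusted p = 2.50e-08). AZIN1, an inhibitor of antizyme, fell from 43.1 ± 0.876 to 27.1 ± 1.6 TPM (SD, n = 3 each), with log2 fold change -0.65 (limma adjusted p = 1.51e-05), against -0.17 and -0.45.

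In the list of purine and thymidylate synthesis, 16 genes, 14 were tested, 9 were higher, 4 lower and 1 not called, with a median log2 fold change of 0.55, against 1.03 and 0.43 in the other scalings. PPAT, the first enzyme of purine synthesis, fell from 169.6 ± 2.75 to 35.4 ± 0.431 TPM (SD, n = 3 each), with log2 fold change -2.23 (limma adjusted p = 1.23e-09). GART, which uses formyl-folate in the same route, fell from 33.6 ± 1.16 to 20.0 ± 0.884 TPM (SD, n = 3 each), with log2 fold change -0.72 (limma adjusted p = 5.89e-06), against -0.24 and -0.80 in the other scalings. PFAS, which acts between steps carried out by GART, was listed at 0 in each control and reached 6.0, 5.62 and 5.20 TPM with MT. DCTD, which makes the deoxyuridine nucleotide that TYMS methylates, was also at 0 in each control library, with 9.12, 9.02 and 8.05 TPM with MT. In the same branch DUT and TK1 rose with log2 fold changes of 0.45 and 0.73 (limma adjusted p = 4.43e-06 and 5.07e-07), against 0.93 and 0.66 for DUT and 1.21 and 0.80 for TK1. DTYMK, the kinase that acts on the product of TYMS, was lower like TYMS, at 77.5 ± 0.860 and 57.4 ± 1.03 TPM (SD, n = 3 each), with log2 fold change -0.43 (limma adjusted p = 2.90e-06). The call of DTYMK was lost after median centring (log2 fold change 0.05, limma adjusted p = 0.0545) and held with quantile normalization (-0.14, limma adjusted p = 0.000738). Of the ribonucleotide reductase subunits, RRM1 rose with log2 fold change 1.14 (limma adjusted p = 5.32e-08), and RRM2 was not called as deposited, at 0.04 (limma adjusted p = 0.123), but was called higher after median centring, at 0.52, and with quantile normalization, at 0.33 (limma adjusted p = 1.41e-06 and 2.10e-05). DUT, TK1, DTYMK, RRM1 and RRM2 were chosen after their values were seen.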

How the data were processed

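RNA-seq of bovine blastocysts (3 control and 3 MT-treated libraries) was analysed from the table of the authors. The deposited values are TPM with 2 decimals, 1 column a library. Per the labels, FastQC 0.11.9, STAR 2.7.9a, featureCounts of Subread 1.6.3 and DESeq2 were used. The labels name genome build ARS-UCD1.2 and a TruSeq kit, whereas the study's methods name ARS-UCD1.3 and Smart-seq2. How counts became TPM is not given in the sources used here, and depth cannot be derived from TPM.

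Columns were matched to samples by their labels. Genes with at least 1 TPM in at least 3 libraries were fitted as log2(TPM + 1) with lmFit and eBayes (trend) in limma 3.58.1 under R 4.3.3, on all 6 libraries, with Benjamini-Hochberg adjustment over 11953 genes at 0.05. Ratios and sums per library were tested by exact permutation over libraries (two-sided) in scipy 1.17.1. The fit was tested on simulated data. The study's methods describe treatments done side by side within each production run. Whether equal replicate numbers mark the same run is not known, so the main fit was unpaired.

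The members, lists and ratios were chosen with earlier results of these data known. All members were named. From each other list, up to 2 rises and 2 falls of largest size were named among called genes whose groups do not overlap, and any other gene is said to be chosen later. FOLR1, NNMT, MTAP and AMH matched no row. Alternatives were another pseudocount, filters, scalings, genes with a symbol only, no trend, a replicate block and each library left out. A few planned results, 1 of the 5 ratios among them, are not reported here. The RefSeq gene table of ARS-UCD2.0 gave neighbours only.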

Additional observations from a re-analysis of the deposited data

How the results depend on the processing

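Each of the 7 tested enzymes kept its direction and its call under all 14 alternatives, and so did each of the other 19 genes named by the rule, of which 8 passed the filter only through the MT-treated libraries, so that their direction was given by the filter. Without a filter on low values, SHMT1 and MTR entered the fit and the number of enzymes called higher was 4 in place of 2, with both set against 0 in every control library. With the replicate number as a replicate block, 2 enzymes were higher and 5 lower as before. The numbers are not known to mark shared runs. Deviations of same-numbered libraries from their group means correlated at -0.01, -0.00068 and 0.06 across the tested genes, and the block changed no call among the 7 enzymes and the 19 genes named by the rule. With a minimum of 5 TPM the enzymes called were the same. Leaving out each library in turn gave 2 enzymes higher and 5 lower each time. With a pseudocount of 0.1 the difference of the SHMT2 to SHMT1 ratio went from -1.67 to -3.76, whereas MAT2A to MAT2B was 1.40, MTHFD2 to MTHFD1 0.61 and AHCY to MAT2A 0.23. Scaled to the genes present in all libraries, the summed level of the enzymes differed by -83.5 TPM (MT-treated minus control), in place of -134 TPM as deposited. With 3 libraries a group, the tests of ratios and sums could not pass 0.05, so they say nothing of stability.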
